A study of Mus musculus with 4 samples.

Results

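Mature mucus goblet cells were taken from 4 single-cell RNA-seq libraries of mouse small intestinal crypts by a rule on raw UMIs (unique molecular identifiers, each standing for 1 captured transcript). A cell was a member when fewer than 20% of its UMIs came from genes whose symbols start with Defa (the alpha-defensins of Paneth cells) and when it held at least 3 UMIs of each of Zg16, Fcgbp and Clca1. It also had to show fewer than 4 of the 8 genes Plet1, Tac1, Tat, Lrg1, C2cd4b, Hsd11b2, Fut2 and Stc2, fewer than 3 of the 4 genes Serpina1b, C2cd4a, Sval1 and Ttr, and fewer than 4 of the 6 genes Ccl9, Mt3, Ang, Ptpro, Rnase1 and Rnase4. The rule found 3894 members among 26498 cells: 358 and 267 in the slc7a5 fl/fl libraries (replicates 1 and 2), and 1716 and 1553 in the libraries labelled slc7a5 IEC-KO. The cells were live, EpCAM positive and CD45 negative, sorted from mice of 8 weeks. In the IEC-KO mice a villin-driven Cre removed the floxed exon of Slc7a5 in the intestinal epithelium, and fl/fl littermates without that deletion were the controls, so both groups carried floxed alleles. The sample records name 4 mice without dividing them among the libraries, so the variation seen within each genotype (n = 2) may be technical. Every value below is given in the order replicate 1, replicate 2.

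Goblet cells make the mucus that covers the intestinal epithelium. They pack the gel-forming mucin Muc2, which is folded in the endoplasmic reticulum (ER) and heavily glycosylated in the Golgi, into granules together with proteins such as Tff3, Fcgbp, Clca1 and Zg16. Slc7a5 is the light chain of a transporter of large neutral amino acids that it forms with Slc3a2. When amino acids run short, the kinase Gcn2 phosphorylates the initiation factor eIF2, most translation slows, and the transcription factor Atf4 is made and raises genes of amino acid uptake, amino acid synthesis and tRNA charging, a programme called the integrated stress response.

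Slc7a5 itself (chr8:121881150-121907694, minus strand, GRCm38) was sparse in the members, with 14 and 14 UMIs in the fl/fl libraries and 64 and 75 in those labelled IEC-KO. On the CPM scale, which sets each count against the member total of its library after TMM scaling, the levels were 3.52 and 3.92 CPM in the fl/fl libraries and 6.80 and 6.14 CPM in the libraries labelled IEC-KO. Both libraries labelled IEC-KO therefore lay above both fl/fl libraries (log2 fold change 0.79, SE 0.28, adjusted p = 0.0667, edgeR quasi-likelihood test), which did not pass the threshold of 0.05, and the log2 fold change was 0.41 at the deeper UMI limit described below. It passed without the low-Tff3 cells described below (0.94, adjusted p = 0.0483), when the rule was applied after thinning (1.00, adjusted p = 0.0146) and without a filter on low counts (0.81, adjusted p = 0.0438), but not with library size scaling (0.68, adjusted p = 0.122), with DESeq2 (0.80, adjusted p = 0.436) or in thinned members (0.15, adjusted p = 0.877). The thinned means per member were nearly equal, at 0.0223 and 0.0225 against 0.0245 and 0.0225 UMIs. In other cell classes of the same libraries, also described below, it rose by the same test (1.57, adjusted p = 1.1e-09, in Defa-rich cells and 1.21, adjusted p = 0.00682, in other goblet cells). The 3' kit counts ends of transcripts and does not show the floxed exon, so these counts say nothing about the deletion. Directions below rest on the labels alone.

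Depth differed with genotype. The members held 3906775 and 3361669 UMIs in the fl/fl libraries and 9914902 and 12603865 in the libraries labelled IEC-KO, with medians of 10282.5 and 11551 UMIs per cell against 5350 and 7499. Each library starts at its own lowest total, 8909 and 9670 UMIs against 3843 and 5858, and 72.6% and 56.9% of fl/fl members lay within 25% above that limit, against 31.0% and 45.1%. Members in fl/fl libraries were thus drawn mostly from the lower edge of their libraries. For comparisons of single cells, each cell was thinned at random to 3843 UMIs. Tests were repeated on the members with at least 9670 UMIs (235 of 358, 267 of 267, 81 of 1716 and 234 of 1553 cells), called the deeper limit here. That limit lay above the upper quartile of the members labelled IEC-KO (6235 and 8645 UMIs). It therefore sets most or all fl/fl members against only the deepest members labelled IEC-KO, and flagged doublets were not left out of it. Simulated doublets resembled 2 and 0 fl/fl members and 117 and 83 members of the libraries labelled IEC-KO. The number of cells flagged was set in advance from each library's cell number, at 2.92% and 2.58% of cells against 8.01% and 7.71%. The flagged counts therefore do not compare doublet rates between genotypes. At most 3 member barcodes were shared by any pair of libraries.

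The label was checked against goblet genes that the rule did not use. After thinning, members had a median of 19 and 15 Muc2 UMIs per cell in the fl/fl libraries and 29 and 26 in those labelled IEC-KO. Cells with at least 20% Defa UMIs (Defa-rich cells) had 4 and 4 against 9 and 10. The remaining cells, which stayed under that limit but did not hold at least 3 UMIs of each of the 3 goblet genes, had 5 and 4 against 13 and 15. Tff3, the trefoil peptide of goblet cells, had medians of 274 and 225 against 291 and 270 in members and of 36 and 33 against 36 and 43 in Defa-rich cells. Both genes were thus several times more abundant in members than in Defa-rich cells of the same library, but Muc2 was seen in 98.8%, 98.3%, 99.9% and 100% of thinned Defa-rich cells too, so detection alone does not mark a goblet cell here. In the remaining cells Tff3 had medians of 69 and 65 against 115 and 112. Spink4, also outside the rule, had medians of 169 and 131 against 168 and 180 in members and of 67 and 49 against 178 and 195 in the remaining cells. In the libraries labelled IEC-KO Spink4 therefore did not set members apart from the remaining cells. Spdef, a transcription factor of goblet cell maturation, was detected in 39.7% and 31.5% of thinned members against 45.0% and 43.1%, and Atoh1, the secretory lineage factor, in 32.1% and 32.6% against 36.6% and 37.9%. In the remaining cells the shares were 24.0% and 22.6% against 39.7% and 38.6% for Spdef and 25.2% and 21.7% against 34.0% and 34.7% for Atoh1, and in Defa-rich cells 12.3% and 11.0% against 26.8% and 27.2% and 9.86% and 8.44% against 21.8% and 21.6%. In the libraries labelled IEC-KO these 2 factors therefore hardly set members apart from the remaining cells. Other goblet cells, the 2949 that met the same 3-gene condition and Defa limit but failed an exclusion list (426, 372, 766 and 1385), had nearly the same Muc2 medians of 18 and 19 against 29 and 25.

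Among themselves the members formed a main population and a small tail. In thinned cells 29 and 49 fl/fl members (8.10% and 18.4%) and 44 and 97 members labelled IEC-KO (2.56% and 6.25%) had fewer than 100 Tff3 UMIs, a limit set after the values were seen. Zg16, which the rule used, had medians of 9 and 8 against 8.5 and 9 UMIs in these cells and of 108 and 100 against 114 and 93 in the other members, given as a description. Their mean UMIs of enterocyte markers were 50.2 and 63.2 against 31.8 and 53.8, and those of the other members 14.1 and 12.8 against 7.63 and 8.06. Paneth markers averaged 186 and 175 against 285 and 228 UMIs in the low-Tff3 cells and 196 and 210 against 122 and 138 in the other members. Enteroendocrine markers averaged 1.83 and 9.59 against 25.25 and 10.6, and 3.97 and 2.99 against 5.46 and 5.08. The Muc2 medians of the low-Tff3 cells were 2 and 3 against 11.5 and 10. By their Muc2 and enterocyte markers, which the rule did not use, the low-Tff3 cells go against the label, and they made up the largest share in fl/fl replicate 2. The genotype test on summed counts was repeated without them, while the shares and the comparisons with other cell classes were not.

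**Figure D1:**
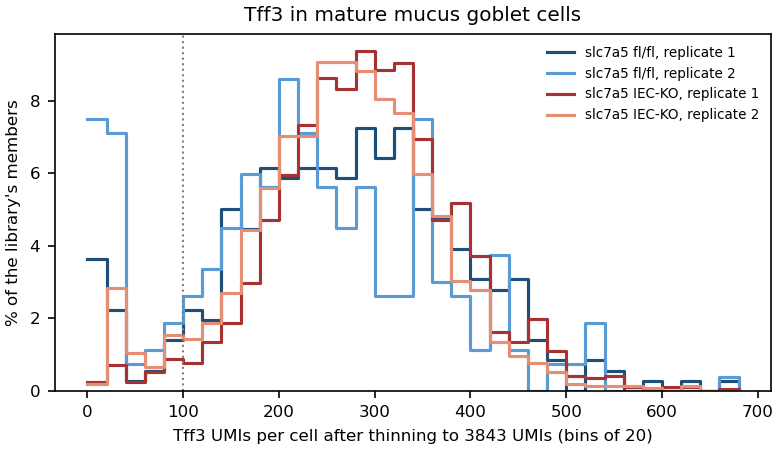
Tff3 UMIs per member after thinning to 3843 UMIs (x axis, bins of 20) against the percentage of the library's members (y axis), 1 line per library, with the dotted line at 100 UMIs. All 4 libraries have a main population around 200 to 340 UMIs, and fl/fl replicate 2 has the largest group below 100 UMIs (18.4%).

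Members just inside the rule had slightly more Muc2 than cells just outside it. The lowest of the 3 required genes stood at exactly 3 UMIs in 45 and 40 fl/fl members and 254 and 213 members labelled IEC-KO, and at 2 UMIs in 106, 89, 393 and 378 cells that met every other condition. Median Muc2 was 6 and 3 against 22 and 19 raw UMIs in the former and 3 and 2 against 17 and 14 in the latter. For the third exclusion list, 181, 138, 483 and 674 members had 3 of its 6 genes, and 142, 160, 264 and 511 cells failed by having 4. Only 1 and 2 fl/fl members and 17 and 5 members labelled IEC-KO had none of the 18 excluded genes.

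The share of members among all cells of a library was 9.85% (95% Clopper-Pearson interval 8.90 to 10.9) and 8.30% (7.37 to 9.31) in the fl/fl libraries and 17.2% (16.4 to 17.9) and 16.1% (15.4 to 16.9) in those labelled IEC-KO. The means were 9.08% ± 1.10 (SD, n = 2) and 16.6% ± 0.742, a difference of 7.55 percentage points, larger than the spread within either genotype. A two-sided exact permutation test gave p = 0.333, the smallest that 2 libraries against 2 allow. Thinning every cell before the rule left the direction but a smaller gap, with 11.5% and 10.4% against 16.6% and 16.3%. When only cells with at least 9670 UMIs were counted, the order turned: 7.35% and 8.30% against 2.86% and 4.81%. The direction of the difference therefore depended on the UMI limit. The intervals cover counting error only.

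**Figure D2:**
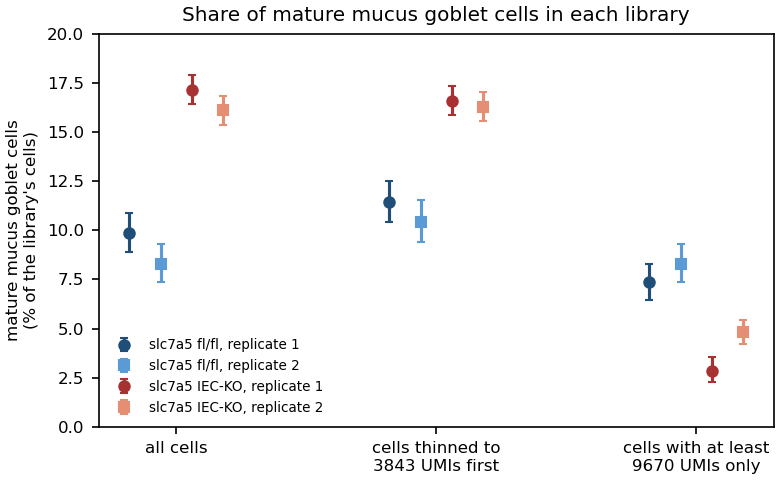
Share of mature mucus goblet cells among the cells of each library (y axis, %) for all cells, for cells thinned to 3843 UMIs before the rule, and for cells with at least 9670 UMIs; points are libraries and bars 95% Clopper-Pearson intervals. The libraries labelled IEC-KO lie above fl/fl in the first 2 settings and below in the third.

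For gene expression, raw UMIs were summed over the members of each library and these sums were tested between genotypes in edgeR. Of 10330 genes outside the rule, 870 rose (8.42%) and 881 fell (8.53%) in the libraries labelled IEC-KO, and 17% were called in all at an adjusted p under 0.05. At the deeper limit, 286 of 8915 genes rose (3.21%) and 89 fell (0.998%), 4.21% in all. The low-Tff3 cells changed these counts less: without them 806 of 10123 genes rose (7.96%) and 721 fell (7.12%). The log2 fold changes of all genes had a median of -0.0037, and scaling by library size alone shifted it to -0.12 and the counts to 527 higher and 1291 lower. Without fl/fl replicate 2, 568 genes rose and 522 fell.

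The genes of Atf4 and the integrated stress response rose almost without exception. Of 51 listed genes tested, 50 were higher and none lower, with a median log2 fold change of 1.59 beside -0.0037 for all genes. The count was 49 with library size scaling, 46 with DESeq2 and 50 without the low-Tff3 cells, and 41 of 49 at the deeper limit. Together the list's genes took 0.213% and 0.199% of member UMIs in the fl/fl libraries and 0.729% and 0.694% in those labelled IEC-KO. The list was written with earlier results on such genes known, so its direction is no independent evidence.

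Atf4 itself was measured at 119 and 109.9 CPM in the fl/fl libraries and 272 and 250.1 CPM in the libraries labelled IEC-KO, an increase of 2.28-fold (log2 fold change 1.19, SE 0.10, adjusted p = 5.33e-07, edgeR). The most abundant gene of the list was Nupr1, a small stress-induced nuclear protein (chr7:126623249-126630861, minus strand, GRCm38), at 494 and 401 CPM against 3084 and 2775 CPM. The libraries of each genotype lay close together and the genotypes far apart (log2 fold change 2.71, SE 0.12, adjusted p = 1.06e-10, edgeR), and the log2 fold change was 2.36 at the deeper limit. Eif4ebp1, which holds back cap-dependent translation, rose from 128 and 108 CPM to 557 and 462 CPM (log2 fold change 2.11, SE 0.12, adjusted p = 3.18e-09).

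The enzymes of serine synthesis were low in the fl/fl members and rose together. Phgdh, the first step from glycolysis, was measured at 8.55 and 17.9 CPM in the fl/fl libraries and 132 and 115 CPM in the libraries labelled IEC-KO (log2 fold change 3.24, SE 0.19, adjusted p = 4e-09, edgeR). Psat1, the aminotransferase after it, was at 18.4 and 16.0 CPM against 95.1 and 88.9 CPM (log2 fold change 2.42), and Psph, which releases serine, at 10.3 and 12.1 CPM against 106 and 94.9 CPM (log2 fold change 3.17). All 3 passed the test, and Phgdh, unequal between the fl/fl libraries, had a log2 fold change of 3.85 without fl/fl replicate 2. Asns, which makes asparagine, rose from 68.4 and 57.7 CPM to 220.2 and 209 CPM (log2 fold change 1.76, SE 0.11, adjusted p = 1.08e-08). Pck2, the mitochondrial phosphoenolpyruvate carboxykinase, rose from 20.4 and 18.2 CPM to 97.2 and 92.9 CPM (log2 fold change 2.29, SE 0.12, adjusted p = 1.8e-09).

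The transcription factors downstream of Atf4 showed larger ratios from lower levels. Atf5 was at 10.6 and 9.25 CPM against 135 and 130.5 CPM (log2 fold change 3.74, SE 0.14, adjusted p = 2.41e-11, edgeR), and Ddit3, the CHOP factor, at 11.1 and 10.7 CPM against 141 and 125 CPM (log2 fold change 3.61, SE 0.14, adjusted p = 2.66e-11). Both were thus more than 10-fold higher on average in the libraries labelled IEC-KO. Trib3, a pseudokinase that restrains Atf4 and Ddit3, had 3 and 3 UMIs in all fl/fl members together and 871 and 1127 in those labelled IEC-KO. Chac1, which degrades glutathione, had 10 and 7 UMIs against 725 and 862, and Gdf15, a secreted stress hormone, 2 and 3 against 166 and 228. Slc7a3 had no UMI in either fl/fl library and 27 and 53 in the others, at least 4.17-fold higher when 3 counts are allowed in each fl/fl library.

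For the tRNA synthetases of the list, Nars and Mars are given here. Nars, the asparaginyl-tRNA synthetase, went from 181 and 173 CPM to 358 and 382 CPM (log2 fold change 1.06, SE 0.10, adjusted p = 1.25e-06, edgeR). Mars, the methionyl-tRNA synthetase, was the only tested gene of the list that did not pass, at 20.4 and 22.1 CPM against 25.5 and 23.8 CPM (log2 fold change 0.21, SE 0.14, adjusted p = 0.332). Fgf21, Jdp2 and Stbd1 had too few UMIs to be tested.

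**Figure D3:**
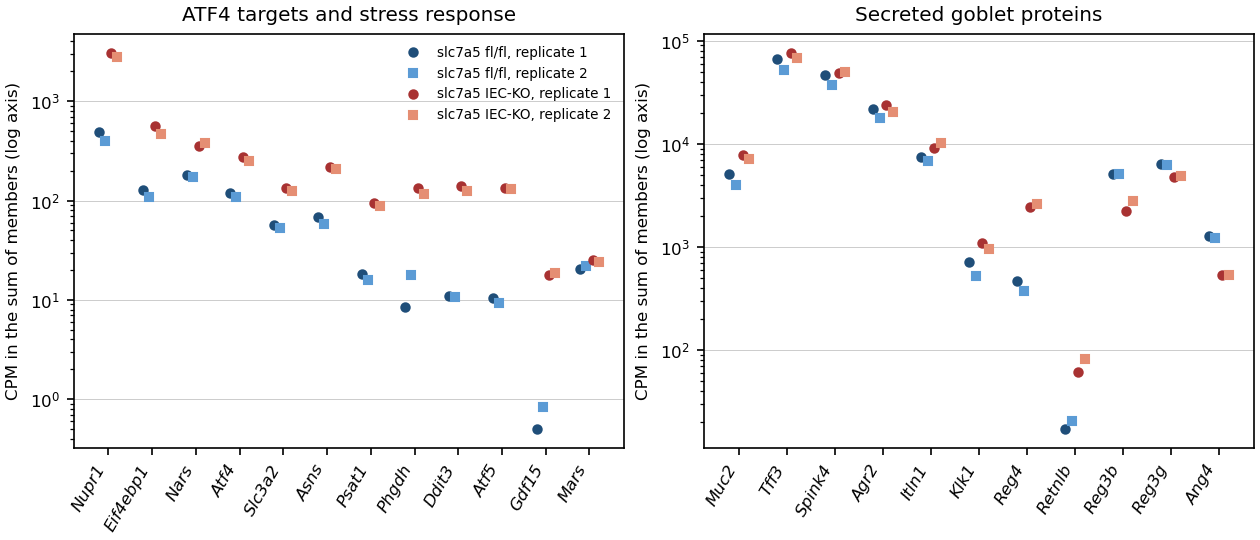
Levels in the members (y axis, CPM on a log scale) of genes of the Atf4 list and of secreted goblet proteins, 1 point per library. The points labelled IEC-KO lie above both fl/fl points for every stress gene shown, only slightly so for Mars, while the secreted proteins go both ways.

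Promoters were searched because most of the list moved together. The amino acid response element, which Atf4 binds with a C/EBP partner, was written as TGATGNAA on either strand, and the ER stress response element, a site of Atf6 and Xbp1, as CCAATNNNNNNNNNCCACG. RefSeq promoters (GRCm38.p6, 250 bases before to 50 after the start) matched 42 genes of the Atf4 list, 56 of the ER folding list and 24 of the mucus list. TGATGNAA was found in 17 of the 42 Atf4 genes (40.5%), in 3 of the 56 ER genes and in 0 of the 24 mucus genes, beside 210 of 7965 tested genes (2.64%) and 1219 of all 27025 promoters (4.51%). The 17 include Fgf21 and Jdp2, which had too few UMIs to be tested. Windows of 30 bases follow for 5 of the 17 genes, in the direction of the gene, with the matched letters in capitals. In Asns they read in the direction of the gene and in the others on the opposite strand. The windows are at chr7:126625562-126625591 (minus) for Nupr1, chr6:7693214-7693243 (minus) for Asns, chr6:55037960-55037989 (plus) for Gars, chr14:55540152-55540181 (plus) for Pck2 and chr2:119351038-119351067 (plus) for Chac1.
Nupr1: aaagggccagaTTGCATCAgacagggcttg
Asns: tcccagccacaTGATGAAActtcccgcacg
Gars: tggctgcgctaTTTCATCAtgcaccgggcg
Pck2: agccttcaaagTTACATCAgtatcttacag
Chac1: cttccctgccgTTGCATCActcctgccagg
The log2 fold changes of Atf4-list genes had a median of 1.76 with the letters and 1.55 without them, so genes with no match in the window rose too. A match is a run of letters and not a measured binding site. The list was put together as targets of Atf4, so its larger share of matches is no independent evidence.

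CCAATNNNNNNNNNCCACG was found in 9 of the 56 ER genes (16.1%) and in none of the 42 Atf4 genes or 24 mucus genes, beside 15 of 7965 tested genes (0.188%). The ER list was put together for the unfolded protein response, so its share is no independent evidence either. The ER genes with the letters had a median log2 fold change of -0.0093 and those without them 0.10. The element is shown for the calreticulin gene Calr (chr8:84847069-84847098, minus), the disulfide isomerase gene Pdia6 (chr12:17266486-17266515, plus) and the chaperone gene Hspa5 (chr2:34772020-34772049, plus), with the matched stretch in capitals. In Calr the letters read on the opposite strand, and in Pdia6 and Hspa5 in the direction of the gene.
Calr: caacgCGTGGTCGACCCTCATTGGcccata
Pdia6: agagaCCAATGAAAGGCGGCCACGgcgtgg
Hspa5: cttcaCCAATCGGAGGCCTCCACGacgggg

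Counted cell by cell, the Atf4 programme was spread over most members of the libraries labelled IEC-KO. In thinned cells the median number of the list's 54 genes with a UMI was 6 and 6 in fl/fl members and 13 and 13 in the others. At least 10 of the genes were seen in 6.70% and 8.24% of fl/fl members against 75.6% and 76.8%. The 5th percentile of the libraries labelled IEC-KO was 6 genes, equal to the fl/fl medians. Defa-rich cells had medians of 3 and 3 against 9 and 9, so the level of detection differed between cell classes within the same library. Trib3 was seen in none of the thinned fl/fl members and in 27.0% and 27.4% of the others. In Defa-rich cells it was seen in 0.280% and 0.343% against 27.1% and 25.1%, close to the shares in members. Free RNA can give such UMIs, and its part in the single-cell shares was not tested.

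**Figure D4:**
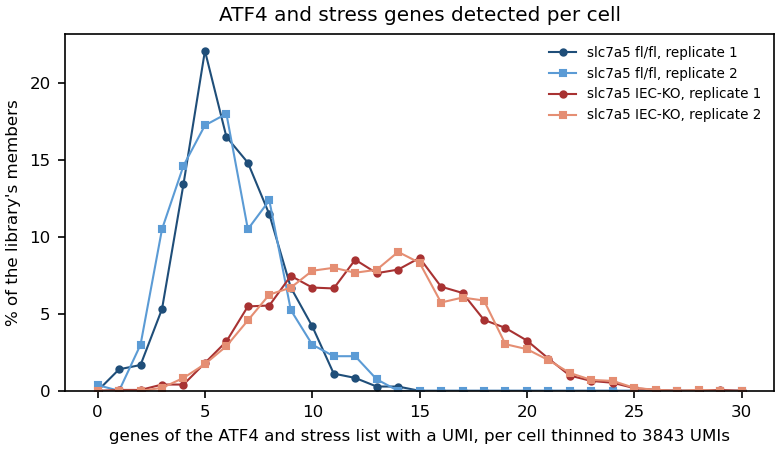
Number of the 54 Atf4-list genes with at least 1 UMI per thinned member (x axis) against the percentage of the library's members (y axis), 1 line per library. The fl/fl lines peak around 6 genes and the lines labelled IEC-KO around 13.

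Members were also ranked by thinned Muc2 UMIs and cut into 4 groups of equal size within each library, as a description. From the lowest to the highest group the median Muc2 went from 7 to 36 and from 3 to 33 UMIs in the fl/fl libraries and from 15 to 44 and from 14 to 41 in the others. In the lowest groups the median of Tff3 was 153.5 and 25 against 228 and 202 UMIs. Most cells in the lowest group of fl/fl replicate 2 were therefore low-Tff3 cells. The median number of Atf4-list genes stayed at 6 in the lowest and highest groups of both fl/fl libraries, and went from 9 to 15 and from 10 to 15 in those labelled IEC-KO. Cycling markers fell along the same ranking in every library, from a mean of 10.0 to 0.764 and from 10.1 to 1.52 UMIs, and from 4.13 to 0.762 and from 4.70 to 1.00. Enterocyte marker UMIs were 26.9 and 49.6 in the lowest fl/fl groups and 11.7 and 8.76 in the highest. High-Muc2 members therefore carried fewer cycling transcripts in all 4 libraries.

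Among 26 mucus and other secreted goblet proteins outside the rule, 8 rose and 7 fell, beside 8.42% higher and 8.53% lower among all genes, with a median log2 fold change of 0.21. At the deeper limit 4 of 25 rose and 2 fell, with a median of -0.11, beside 3.21% and 0.998% of all genes. The list had members in both directions at either depth. Without fl/fl replicate 1 there were 10 rises and 4 falls. Muc2 (chr7:141690340-141754693, plus strand, GRCm38) was measured at 5117 and 4010.0 CPM in the fl/fl libraries and 7844 and 7140.0 CPM in the libraries labelled IEC-KO. Its rise (log2 fold change 0.72, SE 0.12, adjusted p = 0.000456, edgeR) was larger than the spread between libraries, but was 0.35 (adjusted p = 0.0833) at the deeper limit. Tff3 (66026 and 52295 CPM against 76743 and 68414 CPM, adjusted p = 0.123), the protease inhibitor gene Spink4 (47020.4 and 36789 CPM against 49062 and 50101 CPM, adjusted p = 0.201) and Agr2, a disulfide isomerase needed for Muc2 (21665 and 17656 CPM against 23661 and 20152 CPM, adjusted p = 0.435), did not pass. Their log2 fold changes were 0.29, 0.24 and 0.16, and at the deeper limit -0.29, 0.03 and -0.29.

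Reg4, a secreted C-type lectin, showed the largest log2 fold change among the secreted proteins, at 468 and 371 CPM in the fl/fl libraries and 2431 and 2634 CPM in the libraries labelled IEC-KO (log2 fold change 2.59, SE 0.12, adjusted p = 1.84e-10, edgeR), and 3.04 at the deeper limit. It also stood higher elsewhere: the median per thinned cell was 1 and 1 against 6 and 7 UMIs in members, 4 and 3 against 26 and 22 in Defa-rich cells, and 1 and 1 against 9 and 10 in the remaining cells. The part of free RNA in the member values was not tested. Retnlb, the goblet cell protein RELM-beta, rose from 17.1 and 20.5 CPM to 61.1 and 81.0 CPM (log2 fold change 1.93, SE 0.16, adjusted p = 2.75e-07), with 2.14 at the deeper limit. It rose in Defa-rich cells too (log2 fold change 1.75, adjusted p = 2.8e-17, edgeR). There it was seen in 7.38% and 8.88% of thinned fl/fl cells, beside 4.75% and 5.62% of members. In IEC-KO replicate 1 the shares were 30.0% of Defa-rich cells and 16.2% of members. Pnliprp2, a lipase-related protein, rose from 73.0 and 66.2 CPM to 153 and 169.7 CPM (log2 fold change 1.21), and the intelectin Itln1 from 7443 and 6806 CPM to 9175 and 10249 CPM (log2 fold change 0.45). Itln1 was not called without fl/fl replicate 2, with library size scaling or in thinned members. Itln1 is also abundant in Paneth cells, with thinned medians of 91 and 80 against 135 and 116.5 UMIs in Defa-rich cells and 25 and 25 against 26 and 31 in members. In the remaining cells of the fl/fl libraries its medians were 26 and 25, so fl/fl members held no more of it than those cells. The part of free RNA in the Itln1 values was not tested. Klk1, a kallikrein protease, rose from 714 and 524 CPM to 1079 and 950.4 CPM (log2 fold change 0.71, and 0.20 at the deeper limit), and the small membrane protein gene Smim6 from 709 and 568 CPM to 1069 and 884 CPM (log2 fold change 0.61, and 0.14 at the deeper limit).

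The 7 falls were Ang4, Reg3b, Reg3g, Dmbt1, the hormone precursor Guca2b and the membrane mucins Muc3 and Muc4. Ang4, an angiogenin of Paneth and goblet cells, fell from 1288 and 1219.9 CPM to 528 and 539 CPM (log2 fold change -1.23, SE 0.10, adjusted p = 1.42e-07, edgeR), with -1.18 on the log2 scale at the deeper limit. Its thinned medians were 22 and 21 against 6 and 5 in Defa-rich cells, which also fell. In the fl/fl libraries they were 5 and 4 in members and 4 and 4 in the remaining cells, so Ang4 hardly set these classes apart. The part of free RNA in its member values was not tested. The lectin genes Reg3b and Reg3g stood at 5071 and 5045 CPM against 2239 and 2796 CPM (log2 fold change -1.01) and at 6372 and 6287 CPM against 4750.2 and 4825 CPM (log2 fold change -0.40). Reg3g was not called without either fl/fl library or at the deeper limit. Dmbt1, a mucus scavenger receptor protein, went from 163 and 177 CPM to 77.7 and 119.8 CPM (log2 fold change -0.78, SE 0.15, adjusted p = 0.00163), but was 0.21 at the deeper limit.

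Of 25 goblet transcription factors tested, 9 rose and 1 (Gata6) fell at full depth, beside 8.42% higher and 8.53% lower among all genes, with a median log2 fold change of 0.13, and at the deeper limit 1 of 23 passed. Without fl/fl replicate 2 there were 5 rises, and with library size scaling 6 rises and 3 falls. Foxa3, a forkhead factor of the secretory lineage and the 1 that still passed, rose from 184 and 158 CPM to 324 and 293 CPM (log2 fold change 0.85, SE 0.11, adjusted p = 3.44e-05, edgeR; 0.45 at the deeper limit). Spdef rose from 116 and 91.1 CPM to 169 and 153 CPM (log2 fold change 0.63, SE 0.12, adjusted p = 0.00135), Xbp1, the secretory cell factor, from 167 and 148 CPM to 226 and 213 CPM (log2 fold change 0.48, SE 0.10, adjusted p = 0.00405), and Klf4, a differentiation factor, from 131 and 108 CPM to 158 and 152 CPM (log2 fold change 0.38, SE 0.11, adjusted p = 0.025). At the deeper limit their log2 fold changes were 0.22, 0.21 and -0.09. The ER-anchored factors Creb3l1 and Creb3l4 and Atoh1 had log2 fold changes of 0.60, 0.64 and 0.44. Calls were lost for Klf4 and Atoh1 without fl/fl replicate 2, and for Klf4 also without IEC-KO replicate 1, with DESeq2 and with library size scaling. Cdx1 (141 and 148 CPM against 162 and 148 CPM) and Elf3 (187 and 174 CPM against 179 and 177 CPM) did not pass.

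Calls among genes of mucin glycosylation and of granules were mostly lost at the deeper limit, where calls over all genes also went from 17% to 4.21%. Of 38 glycosylation genes 8 rose and 2 fell (median 0.15 on the log2 scale), and 2 of 37 were called at the deeper limit. The rises numbered 13 without fl/fl replicate 1, 4 without fl/fl replicate 2 and 5 without IEC-KO replicate 1, and with library size scaling 4 rose and 3 fell. Galnt6, which starts O-glycan chains, rose from 103 and 83.8 CPM to 171 and 156 CPM (log2 fold change 0.80, SE 0.11, adjusted p = 0.00011, edgeR) and held at 0.52 (adjusted p = 0.0203). Galnt12 of the same family (155 and 137 CPM against 194 and 178 CPM, log2 fold change 0.34), Gcnt3, a core branching enzyme (148 and 119 CPM against 186 and 165 CPM, 0.39), and Tsta3, which makes GDP-fucose (349 and 299 CPM against 463 and 399.7 CPM, 0.41), rose at full depth and had -0.05, -0.02 and 0.16 at the deeper limit. These 3 also lost their calls without fl/fl replicate 2 or IEC-KO replicate 1, with library size scaling and in thinned members. Of 24 granule and exocytosis genes 7 rose and none fell (median 0.19), and none of 23 passed at the deeper limit. Without fl/fl replicate 2 only 1 of 26 rose, without IEC-KO replicate 1 only 3 of 23, and with the rule applied after thinning 2 rose and 1 fell. Rab27b, a granule Rab protein, went from 98.4 and 76.0 CPM to 139 and 123 CPM (log2 fold change 0.58, SE 0.12, adjusted p = 0.00324), and its effector Sytl2 had a log2 fold change of 0.59. The transporter genes Slc12a8 and Slc50a1 had log2 fold changes of 0.40 and 0.43, and these 2 and Sytl2 lost their calls without fl/fl replicate 2. Vamp8, a vesicle SNARE, did not pass (278 and 274 CPM against 302 and 276 CPM).

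Of 73 genes of ER folding, translocation and the unfolded protein response, 12 rose and 4 fell, beside 8.42% higher and 8.53% lower among all genes, and the median log2 fold change was 0.06. The rises numbered 7 without fl/fl replicate 2 and the falls 1 without fl/fl replicate 1 or IEC-KO replicate 2. With library size scaling 8 rose and 7 fell, and with the rule applied after thinning 9 and 15. At the deeper limit 4 of 72 rose and 2 fell, with a median of -0.11. Hspa5, the main ER chaperone and a reporter of ER stress, was measured at 488 and 396 CPM in the fl/fl libraries and 468 and 473 CPM in the libraries labelled IEC-KO (log2 fold change 0.09, SE 0.11, adjusted p = 0.636, edgeR), with overlapping libraries. Krtcap2, of the oligosaccharyltransferase, rose from 583 and 552 CPM to 935 and 881 CPM (log2 fold change 0.68, SE 0.10, adjusted p = 0.000116) and by 0.53 log2 units at the deeper limit. Txndc5, a disulfide isomerase, Vimp, of ER-associated degradation, and Oit1 had log2 fold changes of 0.42, 0.33 and 0.55, and of -0.03, 0.03 and 0.43 at the deeper limit. Txndc5 and Vimp lost their calls without fl/fl replicate 2 or IEC-KO replicate 1. Sec61b (1509.6 and 1388 CPM against 1723 and 1537 CPM) and Sec61g (1674 and 1428 CPM against 1681 and 1839 CPM), of the translocon, did not pass.

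Of 27 amino acid transporters tested, 7 rose and 4 fell, beside 8.42% higher and 8.53% lower among all genes, with a median log2 fold change of 0.23. Without fl/fl replicate 2 or IEC-KO replicate 1 there were 6 rises and 1 fall. Slc3a2, the heavy chain that Slc7a5 and related light chains bind, rose from 56.9 and 52.4 CPM to 133 and 125 CPM (log2 fold change 1.24, SE 0.11, adjusted p = 5.14e-07, edgeR). Slc7a1, which carries cationic amino acids, rose from 26.9 and 28.6 CPM to 54.1 and 60.3 CPM (log2 fold change 1.05, SE 0.12, adjusted p = 1.42e-05), Slc1a5, which carries glutamine, from 55.9 and 46.2 CPM to 111 and 97.0 CPM (log2 fold change 1.02, SE 0.12, adjusted p = 1.47e-05), and Slc38a2, which carries small neutral amino acids, from 30.7 and 30.3 CPM to 46.4 and 48.8 CPM (log2 fold change 0.64, SE 0.12, adjusted p = 0.00109). All 4 also belong to the Atf4 list, and all 4 passed at the deeper limit. Slc38a1 (38.7 and 33.6 CPM against 46.9 and 45.2 CPM) and the taurine carrier gene Slc6a6 (47.8 and 51.3 CPM against 41.1 and 43.9 CPM) did not pass.

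Of 35 genes of the mTORC1 pathway 5 rose and 1 (Rragd) fell, with a median log2 fold change of 0.06. That is close to the 17% of all genes that were called, and nothing is read from it. Ddit4, an inhibitor of mTORC1, rose from 29.4 and 18.8 CPM to 70.1 and 65.1 CPM (log2 fold change 1.47, SE 0.15, adjusted p = 3.3e-06, edgeR), Lars, the leucyl-tRNA synthetase, from 26.9 and 27.2 CPM to 51.7 and 44.5 CPM (log2 fold change 0.83, SE 0.13, adjusted p = 0.00027), and Deptor, an mTOR-binding inhibitor, from 40.3 and 31.4 CPM to 57.2 and 55.9 CPM (log2 fold change 0.65, SE 0.12, adjusted p = 0.00163; 0.48 at the deeper limit, not passing). Eif4ebp1, given above, and Sesn2 were the other rises, and all but Deptor are also on the Atf4 list. Lamtor2 (284 and 266 CPM against 305 and 297 CPM) and Lamtor4 (159 and 148 CPM against 194 and 173 CPM), which anchor mTORC1 at the lysosome, did not pass.

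Of 82 ribosomal protein genes 66 rose and none fell, beside 8.42% higher among all genes, with a median log2 fold change of 0.38. They took 17.0% and 18.5% of member UMIs in the fl/fl libraries against 21.7% and 21.9%. The count was 42 at the deeper limit with a median of 0.39, 30 higher and 1 lower (median 0.27) with library size scaling, 32 higher and 1 lower without fl/fl replicate 1, and 42 higher without fl/fl replicate 2. Rps14 (3701 and 3939.9 CPM against 6107 and 5591 CPM, log2 fold change 0.61) and Rpl41 (8738 and 8939 CPM against 10858 and 12155 CPM, 0.38) were higher in both libraries labelled IEC-KO, and Rpl41 lost its call without either fl/fl library and with library size scaling. Several ribosomal protein genes have pseudogene copies that can share reads. Of 13 mitochondrially encoded genes 6 fell and none rose, beside 8.53% lower among all genes (median -0.31), led by mt-Nd1 (2475 and 2299 CPM against 1508 and 1624 CPM, -0.61) and mt-Cytb (3294 and 3283 CPM against 2294 and 2349 CPM, -0.50).

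Markers of other crypt cells differed between the genotypes inside the members. Cycling markers fell in 25 of 26 cases with none higher, beside 8.53% lower among all genes (median log2 fold change -1.13), for example Birc5 (96.9 and 114 CPM against 46.3 and 48.5 CPM, log2 fold change -1.15, SE 0.11, adjusted p = 1.45e-06, edgeR) and Hmgb2 (311 and 353 CPM against 151 and 173 CPM, -1.03), the most abundant. Their sum was 0.127% and 0.157% of UMIs against 0.0551% and 0.0653%. None was called at the deeper limit, where the median was -0.26 and 0.998% of all genes fell. Of 17 stem cell markers 5 fell and none rose, beside 8.42% higher and 8.53% lower among all genes (sum 0.0284% and 0.0355% against 0.0241% and 0.0272%, most abundant Slc12a2, Tert at 0), and none passed at the deeper limit. Without fl/fl replicate 2, 1 stem cell marker fell and 2 rose, and without IEC-KO replicate 1, 3 fell.

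Enterocyte markers fell in 18 of 21 cases (median -1.09), and in 7 of 20 at the deeper limit (median -0.64), beside 8.53% and 0.998% of all genes. Their sum was 0.461% and 0.599% against 0.228% and 0.298%, with none at 0 in all libraries. Their mean per thinned member was 17.1 and 22.0 against 8.25 and 10.9 UMIs. Without the low-Tff3 cells it was 14.1 and 12.8 against 7.63 and 8.06 UMIs. The most abundant was the fatty acid carrier Fabp2 at 1205 and 1000.4 CPM against 833 and 802 CPM (log2 fold change -0.43, but -0.28 and not called without fl/fl replicate 1). Apoa1, the main HDL apolipoprotein, went from 715 and 1005 CPM to 291 and 469.7 CPM (log2 fold change -1.17), and was not called with DESeq2 or at the deeper limit (-0.67). Paneth markers outside the rule fell in 9 of 15 cases and rose in 4 (median -0.78), beside 8.42% higher and 8.53% lower among all genes, against 5 and 6 at the deeper limit (median -0.30). With the Defa genes they took 9.90% and 10.4% of UMIs against 7.10% and 8.22%. The most abundant was Defa24, and the rises include Nupr1, which is on the Paneth list as well as the Atf4 list. Lyz1, the lysozyme of Paneth cells, stood at 7788 and 7530.1 CPM against 4120.3 and 4308 CPM (log2 fold change -0.86, and -0.28 at the deeper limit, not called). Its thinned medians were 29 and 29 against 11 and 12 in members and 134 and 121 against 59 and 45 in Defa-rich cells. In the remaining cells of the fl/fl libraries they were 29 and 29, equal to those of fl/fl members. The part of free RNA in the Lyz1 values was not tested.

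Enteroendocrine markers rose in 10 of 17 cases with none lower (median 1.01), beside 8.42% higher among all genes, in 9 of 14 at the deeper limit (median 1.62), beside 3.21%, in 7 when the rule was applied after thinning, and in 5 with DESeq2. Their sum was 0.108% and 0.113% of UMIs against 0.187% and 0.162%, none of the 20 listed at 0 in all libraries. The most abundant was Gip, the incretin of K cells, at 424 and 237 CPM against 777 and 651 CPM (log2 fold change 1.11, SE 0.18, adjusted p = 0.000365, edgeR). Gip is scattered over all classes: its mean per thinned cell was 1.71 and 1.06 against 2.46 and 2.13 UMIs in members, 1.45 and 1.80 against 1.79 and 1.90 in Defa-rich cells, which should lack it, and 0.860 and 1.05 against 5.58 and 5.25 in the remaining cells. In members its median was 1 in every library and its 95th percentile 3 and 3 against 3 and 4. Few members with many Gip UMIs therefore carried much of the means, except in fl/fl replicate 2. Gip was not called with DESeq2 (adjusted p = 0.0938). Cck, cholecystokinin, rose from 64.9 and 48.5 CPM to 137 and 117 CPM (log2 fold change 1.16), but was 0.048 (adjusted p = 0.871) when the rule was applied after thinning. Nts, neurotensin, went from 6.04 and 7.01 CPM to 127 and 32.5 CPM, uneven between the libraries labelled IEC-KO (log2 fold change 3.59, and 2.32 without IEC-KO replicate 1 or 4.28 without IEC-KO replicate 2). What these markers of other cells contributed to the other differences was not tested.

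Immune and stromal markers were nearly absent, with 10 of 19 (among them Cd3g, Cd79a and Col1a1) at 0 in all libraries and a sum of at most 0.000982% of UMIs, of which Lyz2 was the most abundant. Tuft markers summed to at most 0.00988% (most abundant Avil, Gnat3 at 0), with 1 higher and 1 lower of 11. Of 13 MHC class II and antigen presentation genes 3 fell, among them Cd74 (259.6 and 373 CPM against 207 and 245 CPM, log2 fold change -0.48, 0.21 at the deeper limit), and none without fl/fl replicate 2 or IEC-KO replicate 1. Of 15 interferon response genes 2 rose, and of 18 genes induced by tissue dissociation 4 rose and 1 fell (2 rose without fl/fl replicate 2 or IEC-KO replicate 2), beside 8.42% higher among all genes. Nothing is read from these small counts. Genes of the sex chromosomes differed as well: Xist stood at 190.0 and 268 CPM against 545 and 595 CPM and the Y-linked Ddx3y at 15.9 and 14.6 CPM against 4.46 and 4.91 CPM, so both kinds of transcript were present in every library in different proportions.

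**Figure D5:**
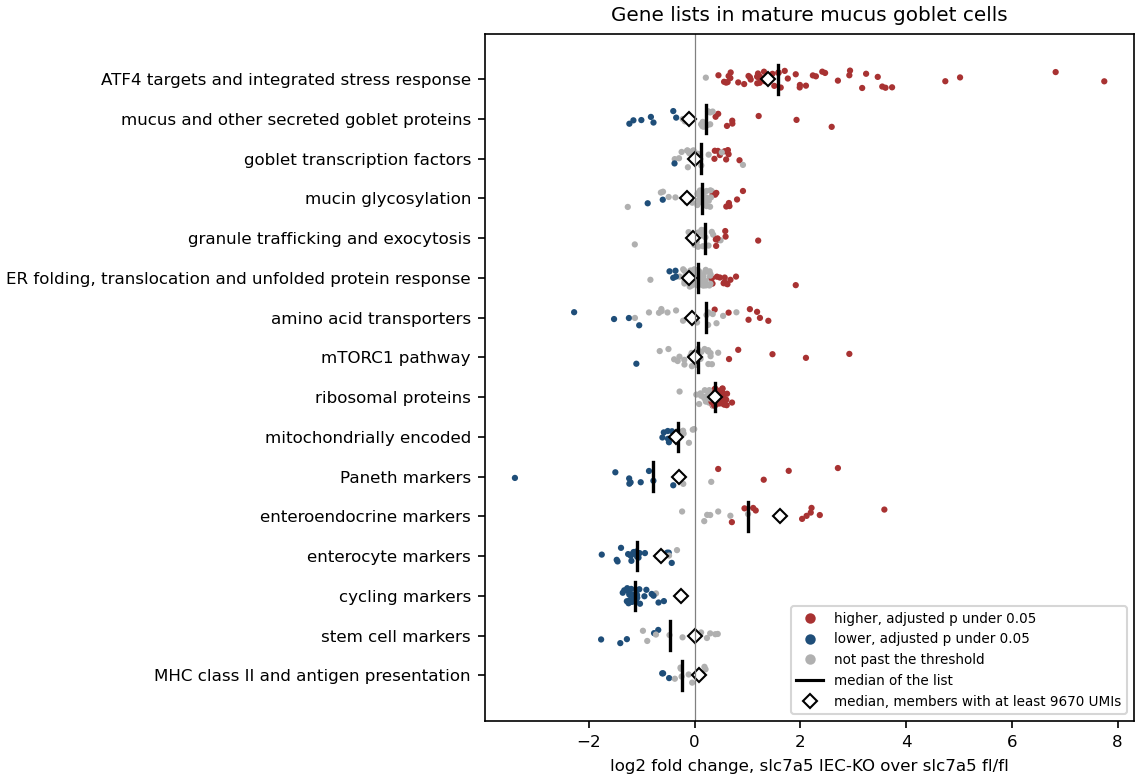
Log2 fold change (x axis, libraries labelled IEC-KO over fl/fl) of every tested gene in the members, grouped by gene list (y axis), with a bar at each list's median and an open diamond at its median in members with at least 9670 UMIs. The Atf4 list lies to the right in both settings (medians 1.59 and 1.40), while the cycling list moves from -1.13 to -0.26.

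Of the 10 largest rises among genes with at least 50 CPM on average, only Reg4, Phf10 and Mt1 lie outside the stress list. Phf10, of a chromatin remodelling complex, rose from 19.4 and 16.5 CPM to 95.6 and 80.3 CPM (log2 fold change 2.28, SE 0.14, adjusted p = 6.72e-09, edgeR), and Mt1, a metallothionein, from 207 and 209 CPM to 896 and 924 CPM (log2 fold change 2.13, SE 0.10, adjusted p = 2.23e-10). The largest falls were mostly defensin-related or absorptive genes. Gm15292 fell from 286 and 292 CPM to 22.4 and 31.9 CPM (log2 fold change -3.40, SE 0.14, adjusted p = 3.51e-11), and Gm7861, Gm14851 and Gm21002 had log2 fold changes of -1.73, -1.50 and -1.47. These are near copies of defensin genes among which reads may be split, so their values are uncertain. Others were the histone gene Hist1h2ap (-2.21, but -1.33 without fl/fl replicate 1 and -1.31 at the deeper limit), the disaccharidase Sis (74.5 and 90.3 CPM against 17.2 and 30.7 CPM, -1.76), the chemokine Ccl25 (-1.41), the glutathione transferase Mgst1 (-1.33) and Tm4sf20 (-1.27). Ccl25, Mgst1 and Tm4sf20 had -0.36, -0.06 and -0.07 at the deeper limit and were not called there, while Sis, Gm14851 and Gm21002 were called with -0.77, -0.77 and -0.82.

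Whether the genotype difference of members differed from that of Defa-rich cells was tested as an interaction with the library as a block, on a scale of CPM common to both classes. Of 12242 genes, 575 moved more towards higher values in members (4.7%) and 461 more towards lower values (3.77%), 8.46% in all. This depended on the scaling: with library size alone the median of all genes was -0.87 and the counts were 16 and 8036. Without IEC-KO replicate 1 they were 255 and 186. Nupr1 differed most in the first direction, with 302 and 239 CPM against 1922 and 1703 CPM in members and 1506 and 1499 CPM against 2887 and 2511 CPM in Defa-rich cells (difference 1.91, SE 0.09, adjusted p = 7.6e-12, edgeR). On this scale the fl/fl libraries were higher in Defa-rich cells than in members, and Nupr1 is also on the Paneth list. The interaction passed for 12 of 54 Atf4-list genes towards higher values, among them Phgdh, Psph, Psat1, Asns and Chac1, and for 2 (Cebpg and Eprs) towards lower values, with a median of 0.30 (1 and 36, median -0.59, with library size scaling). The 12 became 6 with DESeq2, 7 in thinned cells, 7 without fl/fl replicate 2 and 6 without IEC-KO replicate 1. In Defa-rich cells alone all 53 tested Atf4-list genes rose, beside 22% of all genes, with a median log2 fold change of 1.41.

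The enteroendocrine genes Gip (259 and 142 CPM against 484 and 399.8 CPM in members, 813 and 939 CPM against 612 and 612 CPM in Defa-rich cells, difference 1.68, SE 0.18, adjusted p = 1.88e-06), Cck (difference 1.62, SE 0.11, adjusted p = 5.21e-09) and Chgb (difference 1.28, SE 0.14, adjusted p = 2.57e-06) followed, with Tm4sf4 (difference 1.54, SE 0.10, adjusted p = 4.17e-09, all edgeR). With library size scaling the differences were smaller but still passed, at 0.79 for Gip, 0.73 for Cck, 0.39 for Chgb and 0.64 for Tm4sf4, and at 1.01 for Nupr1. The interaction of Gip lost its call with DESeq2. As given above, few members with many Gip UMIs carried much of its thinned means in all libraries but fl/fl replicate 2. In Defa-rich cells fitted alone Gip fell by 0.51 (adjusted p = 2.76e-05) and Cck by 0.43 (adjusted p = 2.1e-05) on the log2 scale after TMM scaling, whereas the thinned means of Gip given above were not lower there. Those of Cck were 0.369 and 0.311 against 0.407 and 0.408 UMIs in Defa-rich cells. Of 19 enteroendocrine genes tested, 12 passed towards higher values (4.7% of all genes), 4 with DESeq2 (1.34%) and 6 with library size scaling (0.131%). In the other direction App, the amyloid precursor gene, stood at 60.2 and 58.5 CPM against 97.2 and 107 CPM in members. In Defa-rich cells it stood at 35.1 and 38.4 CPM against 138 and 142 CPM (difference -1.15, SE 0.10, adjusted p = 5.4e-08, edgeR, and -2.05 with library size scaling). Of 82 ribosomal protein genes 71 rose less in members (medians of 0.38 and 0.86), beside 3.77% of all genes lower, and fewer passed without IEC-KO replicate 1. With library size scaling 65.6% of all genes passed in that direction. Mucus genes were 13 higher and 2 lower of 28, but 0 and 18 with library size scaling, so that their direction rests on the scaling.

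Against the other goblet cells, which failed only an exclusion list, few differences were found. Of 10379 genes 4 moved more towards higher values in members (0.0385%) and 32 more towards lower values (0.308%), 0.347% in all. The total was 401 without fl/fl replicate 1 and 17 without IEC-KO replicate 1. None of 51 Atf4-list genes passed with all libraries (2 of 54 without fl/fl replicate 1), and in the other goblet cells alone 50 of 51 rose with a median log2 fold change of 1.59, beside 8.38% of all genes higher and 7.04% lower. A missed threshold does not show that the classes responded alike, and the median difference over the list was 0.05. Retnlb was the largest difference in the first direction, with 17.0 and 20.3 CPM against 60.4 and 79.5 CPM in members and 78.9 and 111 CPM against 161 and 166 CPM in the other goblet cells (difference 1.12, SE 0.16, adjusted p = 0.00589, edgeR). Rep15, a Rab15 effector (difference 0.68, SE 0.11, adjusted p = 0.0103), and Lrrc26, a potassium channel subunit (difference 0.50, SE 0.10, adjusted p = 0.0427), came next. The call of Lrrc26 was lost with DESeq2, in thinned cells and without either library labelled IEC-KO. Reg1 (difference -1.08, SE 0.20, adjusted p = 0.0289), Ccl25 (difference -0.79, SE 0.15, adjusted p = 0.029) and Mgst1 (difference -0.85, SE 0.12, adjusted p = 0.00327) had the larger falls in members. With 1 library left out the difference of Reg1 ran from -1.58 (without fl/fl replicate 1) to -0.59 (without fl/fl replicate 2), and its call was lost with DESeq2. Ccl25 lost its call without fl/fl replicate 2 or IEC-KO replicate 1 and with DESeq2. In members alone the log2 fold change of Reg1 was -1.12, but 0.046 (adjusted p = 0.904) when the rule was applied after thinning, and it was not called at the deeper limit (-0.43, adjusted p = 0.419) or with DESeq2 (adjusted p = 0.228).

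The genes that defined the members are given without a test. Zg16 was at 31912 and 25170.3 CPM against 34987 and 27839.8 CPM, Fcgbp at 8210.1 and 6251 CPM against 9909.6 and 8813 CPM and Clca1 at 1395 and 1139 CPM against 1567 and 1322 CPM, with overlapping libraries for Zg16 and Clca1. Some genes of the first exclusion list, which limits members to 3 of its 8, were nevertheless unequal: Stc2, a secreted glycoprotein, had 8 and 12 UMIs against 418 and 473, and Tat, the tyrosine aminotransferase, 5 and 6 against 131 and 141. Stc2 was seen in 0.559% and 1.87% of thinned members against 13.7% and 14.3%. In the other goblet cells, some of which the same gene excluded from the members, the shares were 1.64% and 1.88% against 24.2% and 17.8%.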

How the data were processed

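The deposited files hold raw UMI counts per gene and cell barcode for 4 libraries (10x 3' kit). The authors produced these counts with Cell Ranger (version 2.1.1 in the submitters' processing notes, while the study's methods name a later version) on the mm10 genome, and no normalised values were used here. The files hold 27998 genes and 26498 cells. Library totals were 113529509 and 119339206 UMIs (fl/fl) and 87922473 and 127094508 UMIs (labelled IEC-KO).

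Members were found on raw counts. Their counts were summed per library, genes named by the rule were left out of all calls, low genes were dropped with filterByExpr, and libraries were scaled by TMM and compared with edgeR 4.0.16 (R 4.3.3, quasi-likelihood, Benjamini-Hochberg over all genes tested, adjusted p under 0.05). Interactions with other cell classes had the library as a block. Shares were compared with an exact permutation test (SciPy 1.17.1). DESeq2 1.42.0, library size scaling, other filters, thinned cells, the deeper UMI limit and leaving out each library were alternatives. The edgeR genotype and interaction fits were tested on simulated counts. Doublets were scored from simulated pairs (scikit-learn 1.9.0) and kept, with the number flagged per library set by its cell number. With no record of separate mice per library, p-values measure the spread between libraries. Coordinates are from GENCODE release M21 and promoter sequences from RefSeq, both GRCm38.

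The members and gene lists were chosen with earlier results of these data known. Genes named in the text were, per list, up to 4 that passed and 2 that did not with the highest mean CPM, Slc7a5, the 10 largest rises and falls with non-overlapping libraries and at least 50 CPM, and up to 5 per direction for each interaction, and a few items that this rule gives are not reported here. The further Atf4-list, secreted protein and transcription factor genes, the low-Tff3 limit and the groups ranked by Muc2 were chosen after their values were seen.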

Additional observations from a re-analysis of the deposited data

Results flagged for a closer look

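The following differences of genotype effect between cell classes passed the interaction test of edgeR and are given as differences of log2 fold changes (members minus the other class). Against Defa-rich cells they were Nupr1 1.91, Gip 1.68, Cck 1.62, Tm4sf4 1.54 and Chgb 1.28, and in the other direction App -1.15, the RIKEN gene 2210407C18Rik -1.14, the ribosomal pseudogene Rps12-ps3 -1.09, Gm9493 -1.004 and Chchd10 -0.995. With library size scaling, which moved the median of all genes to -0.87, these were Nupr1 1.01, Gip 0.79, Cck 0.73, Tm4sf4 0.64 and Chgb 0.39, and App -2.05, with the other 4 in that direction also further below 0, and all 10 still passed. Of the ribosomal protein genes, 71 rose less in members than in Defa-rich cells, beside 3.77% of all genes lower, and fewer passed without IEC-KO replicate 1. With library size scaling 65.6% of all genes passed in that direction. Gip lost its call with DESeq2 (difference 1.70, adjusted p = 0.085).

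Against the other goblet cells they were Retnlb 1.12, Rep15 0.68 and Lrrc26 0.50, and in the other direction Reg1 -1.08, Mgst1 -0.85, Ccl25 -0.79 and the defensin-related gene Gm15315 -0.77. Reg1 lost its call with DESeq2 (adjusted p = 0.728), and its log2 fold change in members alone went from -1.12 to 0.046 when the rule was applied after thinning. Calls were also lost for Ccl25 with DESeq2 and without fl/fl replicate 2 or IEC-KO replicate 1, and Lrrc26 with DESeq2, in thinned cells and without either library labelled IEC-KO.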

How the results depend on the processing

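The genotype difference in the share of members (7.55 percentage points) was 5.49 after thinning every cell, 5.44 with at least 5 UMIs of each required gene and -3.99 among cells with at least 9670 UMIs. Leaving out 1 library gave 6.77 to 8.33.

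Separate fits called different numbers of genes between genotypes: 1751 of 10330 as reported, 795 with DESeq2, 955 of 9249 in thinned cells, 375 of 8915 at the deeper limit and 88 of 425 in members with none of the 18 excluded genes. Leaving out 1 library gave 1090 (without fl/fl replicate 2) to 1674. Library size scaling gave 527 higher and 1291 lower, against 870 and 881. No label ties a replicate number to a shared animal, litter or day, and with only 2 pairs the numbers were not taken as pairs. The deviations of same-numbered libraries correlated at 0.288 over 3775 genes of at least 20 CPM and at 0.130 over all genes tested, and a replicate block gave 2281 calls.

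Against Defa-rich cells, 1036 interactions became 8052 with library size scaling (16 higher, 8036 lower), 367 with DESeq2, 424 in thinned cells and 441 to 1238 with 1 library left out. Against other goblet cells, 36 became 17 with DESeq2, 166 without a filter on low counts, and 17 (without IEC-KO replicate 1) to 401 (without fl/fl replicate 1).

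Among 76 of the called genes given above, 7 turned direction at the deeper limit, 23 lost their call and 46 kept both, and the cause was not tested. The 7 were Cd74 (0.21), Dmbt1 (0.21), Galnt12 (-0.049), Gcnt3 (-0.023), Klf4 (-0.088), Slc12a8 (-0.025) and Txndc5 (-0.031). Uncalled genes also turned: Agr2 (-0.29 at the deeper limit, -0.038 without low-Tff3 cells, -0.096 with the rule after thinning), Tff3 (-0.29 at the deeper limit, -0.0015 with the rule after thinning), Spink4 (-0.029 with the rule after thinning) and Hspa5 (-0.022 with library size scaling, -0.18 at the deeper limit, -0.23 with none of the 18 genes, -0.016 without low-Tff3 cells, -0.061 with the rule after thinning, -0.056 to 0.26 with 1 library left out). Of the 76, DESeq2 kept 69 calls, library size scaling 68, thinned cells 68, the rule after thinning 67 and the replicate block all. Leaving out fl/fl replicate 2 kept 62, the fewest of the 4 libraries.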
